A study of Arabidopsis thaliana with 20 samples.

Results

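Seedlings of the Arabidopsis thaliana mutant pol2a-1 were compared with wild-type (WT) seedlings, by RNA sequencing of whole seedlings 20 days old. The comparison rests on 4 of the 20 libraries of the series, chosen by their titles: 2 of pol2a-1 and 2 of WT. The series also holds seedlings of pol2a-2, of the triple mutant pol2a-1suvh2suvh9 and of the double mutant suvh2suvh9, and meiocytes of all 5 genotypes, with 2 libraries each. For the pol2a-2 samples the title and the genotype label disagree, the label giving pol2a-1, so which allele they hold cannot be told from the labels. The labels do not say what either allele changes in the protein, and a few plants were pooled for each RNA sample. Nothing in the labels says that the seedling replicates came from separate sowings, so the p-values speak of the spread among these libraries alone.

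POL2A is the catalytic part of DNA polymerase epsilon, the enzyme that copies the leading strand at the replication fork. The same complex takes part in sensing stalled forks and in passing on chromatin marks when DNA is copied. In plants, damaged or unreplicated DNA activates the transcription factor SOG1, which turns on repair genes and inhibitors of the cell cycle. SUVH2 and SUVH9 are SET-domain proteins that bind methylated DNA and help to recruit RNA polymerase V in RNA-directed DNA methylation.

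Total counts, in units of 1e6, were 15.1 and 11.9 in replicates 1 and 2 of pol2a-1, against 34.5 and 26.8 in WT, so the mutant was measured at less depth. Each file lists 27445 nuclear, 88 chloroplast and 122 mitochondrial genes and 31189 transposable elements (TEs). The deposited values are raw read counts per gene or TE, given here as CPM, counts per 1e6 counts of the library. As a check of the seedling label, 28 nuclear photosynthesis genes summed to 152949 and 165423 CPM in pol2a-1 and 154917 and 153484 CPM in WT. Anther and pollen markers summed to 4.04 and 34.8 CPM in pol2a-1 and to 6.41 and 5.59 CPM in WT, so replicate 2 of pol2a-1 stood apart, with MS2 at 4.79 CPM in it against 0.066 CPM in replicate 1. Root markers summed to 104 and 73.3 CPM in pol2a-1 and to 106 and 107 CPM in WT. In bulk seedlings, a change in the number of cells of a type and a change in RNA per cell cannot be told apart. Chloroplast genes took 2.32% and 2.42% of the counts in pol2a-1 and 2.21% and 2.11% in WT. The 4 seedling libraries of the triple mutant and of suvh2suvh9 stood apart, with 0.0215% to 0.0443%.

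The mutated gene, POL2A (AT1G08260, at chr1:2588854-2606892 on the plus strand of TAIR10.1, 49 exons), was read first. It had 28.5 and 29.3 CPM in pol2a-1 and 47.2 and 41.1 CPM in WT. Both mutant libraries lay below both WT libraries, yet the log2 fold change of -0.58 ± 0.27 (standard error) did not pass in the fit of all 10 seedling libraries (adjusted p = 0.328, edgeR quasi-likelihood test). It passed in a fit of the 4 compared libraries alone (adjusted p = 0.0267), but not once each library's trend with feature length was removed, where the log2 fold change was 0.32 (adjusted p = 0.370). With 8805 bases POL2A is among the long genes, whose median log2 fold change was -0.52, and 24.4% of its exons overlap genes on the opposite strand, whose reads an unstranded kit does not separate. SUVH2 stood at 8.02 and 6.64 CPM in pol2a-1 and 7.95 and 10.8 CPM in WT (adjusted p = 0.465), and SUVH9 at 34.2 and 34.9 CPM in pol2a-1 and 33.8 and 29.8 CPM in WT (adjusted p = 0.696).

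In the fit of all 10 seedling libraries, few features differed between pol2a-1 and WT. Of 20078 nuclear genes tested outside repeated sequence, 3 were higher (0.0149%) and 1 was lower (0.00498%) at an adjusted p under 0.05. At an unadjusted p under 0.05, 1695 were higher and 1401 were lower, and the DESeq2 Wald test called 57 higher and 64 lower. Of 1748 TEs tested, 2 were higher (0.114%) and 0 were lower, while p before adjustment was under 0.05 for 118 TEs on the higher side and 132 on the lower, and DESeq2 called 3 and 5. None of the 354 tested genes of repeated sequence or the 117 organellar genes passed in edgeR.

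One of the genes called higher was AT1G75945, a gene of 2 exons annotated as an uncharacterized protein, at chr1:28515245-28515916 on the minus strand of TAIR10.1. It had 6.56 and 4.79 CPM in pol2a-1 and 0 and 0.11 CPM in WT. The counts summed to 156 in pol2a-1 and 3 in WT, a ratio of 118 once depth is taken into account (95% interval from counting error, 39.7 to 579; adjusted p = 0.0178). It was also detected in pol2a-2, at 3.004 and 3.90 CPM, and in the triple mutant, at 8.62 and 7.49 CPM, but was at 0 in both suvh2suvh9 libraries. The triple mutant was at least 146-fold above suvh2suvh9 (adjusted p = 0.00165), measured against 3 counts over the suvh2suvh9 group. In all 3 seedling groups that carry a pol2a mutation, then, AT1G75945 lay above every WT and suvh2suvh9 library. In meiocytes it was at 0 in both pol2a-1 libraries, 8.88 and 0.22 CPM in pol2a-2, 7.36 and 8.98 CPM in the triple mutant, 0 and 3.68 CPM in suvh2suvh9 and 0 and 0.72 CPM in WT. It was thus high in both triple mutant libraries there, but not in pol2a-1.

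The TE AT1TE93275, 668 bases long, had almost the same levels: 5.44 and 4.45 CPM in pol2a-1 and 0 and 0.04 CPM in WT. Its counts summed to 135 in pol2a-1 and 1 in WT, a ratio of 307 (95% interval from counting error, 54.1 to 12196; adjusted p = 0.00392). It had 8.05 and 7.402 CPM in the triple mutant and 0 in both suvh2suvh9 libraries, at least 139-fold (adjusted p = 7.2e-04). In pol2a-2 meiocytes it had 8.88 and 0.22 CPM, the same as AT1G75945. Whether both features count the same reads was not tested, since the files used here give no TE positions. Each interval and bound here covers counting error only. The other TE called higher, AT5TE50260, is 5256 bases long and had 2.19 and 1.85 CPM in pol2a-1 and 0 in both WT libraries, at least 41.6-fold (adjusted p = 0.0497). It did not follow POL2A across the genotypes, since it stood at 2.81 and 3.27 CPM in the triple mutant and at 3.67 and 3.90 CPM in suvh2suvh9.

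The other 3 called genes changed about 2-fold or 3-fold and were expressed in every seedling library. AT5G22920, a zinc finger protein with CHY and RING domains (chr5:7664871-7667288, plus strand), had 52.1 and 44.2 CPM in pol2a-1 and 15.7 and 17.9 CPM in WT, a log2 fold change of 1.55 ± 0.16 (adjusted p = 0.0217). ATCTH (AT2G25900, chr2:11041331-11043256, plus strand), a CCCH zinc finger protein, had 118.5 and 123.6 CPM in pol2a-1 and 52.7 and 56.7 CPM in WT, a log2 fold change of 1.17 ± 0.13 (adjusted p = 0.0290). AT3G14200 (chr3:4712574-4714698, minus strand), a DnaJ-domain chaperone, fell to 16.8 and 16.0 CPM in pol2a-1, against 38.1 and 41.3 CPM in WT, a log2 fold change of -1.25 ± 0.14 (adjusted p = 0.0290). The groups did not overlap for any of the 3 genes, which the naming rule required. Across the other genotypes the 3 differed. AT5G22920 had 28.4 and 27.2 CPM in pol2a-2, 28.4 and 36.9 CPM in the triple mutant and 36.7 and 37.3 CPM in suvh2suvh9. ATCTH was highest in suvh2suvh9, at 189 and 163 CPM, against 107 and 116 CPM in the triple mutant and 70.5 and 69.0 CPM in pol2a-2. Its log2 fold change in the triple mutant over suvh2suvh9 was -0.64, the other direction, and did not pass (adjusted p = 0.105, edgeR quasi-likelihood test). AT3G14200 was below WT in every mutant, with 23.7 and 22.7 CPM in pol2a-2, 15.1 and 16.5 CPM in the triple mutant and 13.4 and 16.5 CPM in suvh2suvh9.

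These 6 calls were not robust. All 6 were lost when the meiocyte libraries joined the fit (adjusted p from 0.354 to 0.373), and 5 were lost without the suvh2suvh9 and triple mutant libraries, where AT1TE93275 alone passed (adjusted p = 0.0258). AT5G22920, ATCTH, AT3G14200 and AT5TE50260 were each lost when any one of the 4 compared libraries was left out (adjusted p from 0.108 to 0.655). AT1G75945 was lost without replicate 1 of WT, replicate 1 of pol2a-1 or replicate 2 of pol2a-1 (adjusted p = 0.0862, 0.241 and 0.0770), and AT1TE93275 without replicate 1 of WT or replicate 1 of pol2a-1 (adjusted p = 0.0705 and 0.0590). In a fit of the 4 compared libraries all 6 passed, with adjusted p from 0.000569 to 0.00356.

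**Figure D1:**
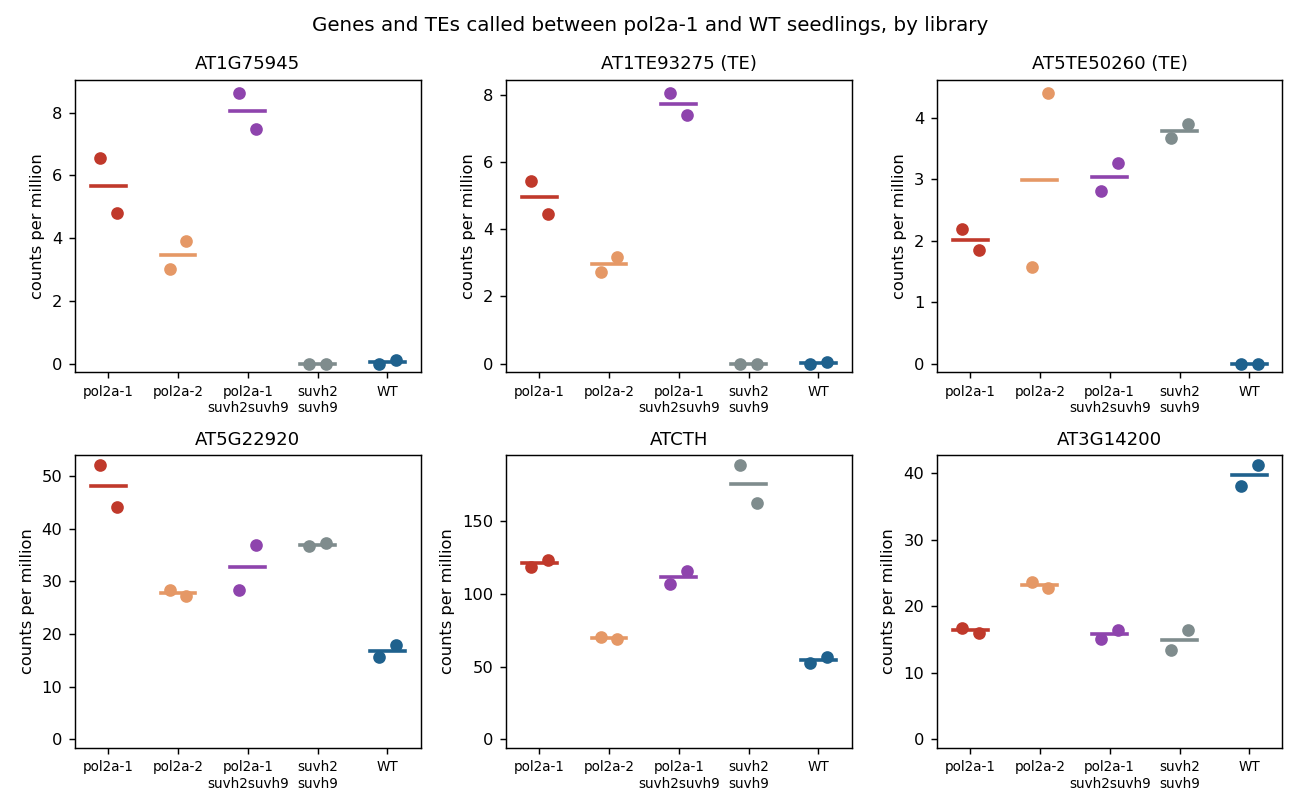
Levels of the 6 features called in the fit of 10 seedling libraries, in CPM on the vertical axis, for pol2a-1, pol2a-2, pol2a-1suvh2suvh9, suvh2suvh9 and WT seedlings. Points are libraries and bars are means of 2; AT1G75945 and AT1TE93275 are near 0 in WT and suvh2suvh9 and between 2.73 and 8.62 CPM in the other 3 groups.

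The next genes by p did not pass in the fit of 10 libraries and are given as values. AT5G19120, an aspartyl protease, had 43.4 and 41.9 CPM in pol2a-1 and 17.8 and 16.7 CPM in WT (adjusted p = 0.0965). AT2G20670, a DUF506 protein, had 64.7 and 59.5 CPM in pol2a-1 and 27.1 and 28.4 CPM in WT (adjusted p = 0.137). BZO2H3, also called bZIP63, a transcription factor of the response to low energy, had 69.3 and 61.2 CPM in pol2a-1 and 31.96 and 35.9 CPM in WT (adjusted p = 0.137). On the lower side, FLOT1, a flotillin of membrane microdomains, had 2.65 and 2.35 CPM in pol2a-1 and 9.43 and 7.94 CPM in WT (adjusted p = 0.0872). GALS3, a galactan synthase of the cell wall, had 19.6 and 23.01 CPM in pol2a-1 and 41.9 and 43.5 CPM in WT (adjusted p = 0.121). For each of these 5 genes the groups did not overlap, as their choice required, and each passed in the fit of 4 libraries.

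The number of calls changed with the libraries in the fit, for a reason that was not tested. The typical squared biological coefficient of variation was 0.0321 over the 10 seedling libraries and 0.0190 over the 4 compared ones. In the fit of the 4 libraries, taken up as a second account after the first was seen, 335 of 19090 nuclear genes were higher in pol2a-1 (1.75%) and 1012 were lower (5.3%). After each library's smooth trend with feature length was removed, 216 were higher (1.13%) and 524 were lower (2.74%). Of the genes called higher, 134 were shared by both versions, 40% of the first list and 62.0% of the second, and 435 of those called lower were shared, 43.0% and 83.0%. Leaving out 1 library moved the counts, with repeated and organellar genes included, from 341 higher and 1040 lower to 55 and 283 without replicate 1 of WT, to 91 and 633 without replicate 2 of WT, and to 883 and 2102 without replicate 1 of pol2a-1. Of the 81 features that the naming rule took and the 4-library fit called, 30 kept the call with each of the 4 libraries left out in turn. They are the 6 features above and AT5G19120, AT2G20670, BZO2H3, FLOT1, GALS3, AT2G18690, AT4G02420, AT2G15042, AT3G15450, AT3G28500, BBX17, FER1, TK1A, DME, DML2, SWN, GI, JAZ1, MYC2, PR1, PR5, RD29A, ZAT10 and WRKY53. Without replicate 1 of WT 32 of the 81 passed, without replicate 2 of WT 61, without replicate 1 of pol2a-1 76 and without replicate 2 of pol2a-1 69, and no fold change turned round. Calls below are those of the 4-library fit unless another is named. Apart from the 6 features above, none of the genes described from here on passed in the fit of 10 libraries.

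Among the 12 largest rises in the 4-library fit, that of AT2G18193 rested mostly on 1 library: this AAA-type ATPase had 8.49 and 1.51 CPM in pol2a-1 and 0.900 and 0.895 CPM in WT (adjusted p = 0.0288). It was far higher in pol2a-2, at 84.0 and 72.1 CPM. FER1, a ferritin that stores iron in plastids, rose to 403 and 468 CPM in pol2a-1, against 159 and 178 CPM in WT, a log2 fold change of 1.40 ± 0.13 (adjusted p = 0.000569). AT3G15450, annotated as an aluminum-induced protein, rose to 132 and 116 CPM, against 34.9 and 50.2 CPM in WT (adjusted p = 0.000814). BBX17, a B-box zinc finger protein, rose to 12.3 and 12.2 CPM, against 4.62 and 5.14 CPM in WT (adjusted p = 0.00462). BT2, a BTB and TAZ domain protein, rose to 7.69 and 6.89 CPM, against 2.35 and 3.09 CPM in WT (adjusted p = 0.0120). For these 4 genes the groups did not overlap, which the naming rule required. In the triple mutant over suvh2suvh9 the log2 fold changes of the 4 were negative instead, at -1.08, -1.14, -0.09 and -0.69 in the order given. None of these passed. The other rises among the 12 largest were AT5G22920, AT5G19120, AT3G28500, AT4G23680, AT4G15680, AT4G19430 and AT5G55720. The 12 were taken among genes that also passed with the length trend removed, so that call was fixed by the choice. AT2G18193, AT4G15680, AT4G19430, AT4G23680 and BT2 lost their call without replicate 1 of WT.

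The 12 largest falls, taken in the same way, included the defence gene PR1. In several of them replicate 1 of WT was far above replicate 2. PR1, a marker of salicylic acid responses, had 1.39 and 0 CPM in pol2a-1 and 17.3 and 5.74 CPM in WT, a log2 fold change of -3.90 ± 0.69 (adjusted p = 0.00872). MYB15, a transcription factor of immune and cold responses, had 0.265 and 0.252 CPM in pol2a-1 and 4.70 and 1.60 CPM in WT (adjusted p = 0.0118). AT3G28510, an AAA-type ATPase, had 0.0663 and 0.252 CPM in pol2a-1 and 10.5 and 1.04 CPM in WT (adjusted p = 0.0187). AIG1, induced by the bacterial effector AvrRpt2, had 0.928 and 0.336 CPM in pol2a-1 and 8.48 and 1.83 CPM in WT (adjusted p = 0.0256). AT2G15042, a leucine-rich repeat protein, had 3.05 and 3.70 CPM in pol2a-1 and 22.4 and 15.02 CPM in WT (adjusted p = 0.000777). AT2G15042 was below WT in every mutant, with 1.84 and 3.26 CPM in pol2a-2, 0.32 and 0.17 CPM in the triple mutant and 1.76 and 0.71 CPM in suvh2suvh9. The other falls among the 12 were AT1G26390, AT1G26380, OSM34, AT3G48640, SHB1, ERF13 and AT1G29560. PR1 and AT2G15042 alone of the 12 kept their call without replicate 1 of WT. The DESeq2 Wald test on the 4 libraries called 2 of the 12 lower.

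Change in pol2a-1 followed gene length, in libraries sequenced at less depth than those of WT. In the fit of 10 libraries the median log2 fold change was 0.22 over 2816 genes under 1000 bases, 0.10 over 9544 genes from 1000 to below 2000 bases, -0.06 over 5267 genes from 2000 to below 3000 bases, -0.28 over 1609 genes from 3000 to below 4000 bases and -0.52 over 842 genes of at least 4000 bases. The share of genes with a positive fold change went the same way, 70.2%, 63.3%, 41.0%, 18.96% and 6.89%. Across the 20078 genes, which are not independent replicates, Spearman's rho between change and length was -0.38. Length here is the sum of annotated exon bases given in the deposited files.

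**Figure D2:**
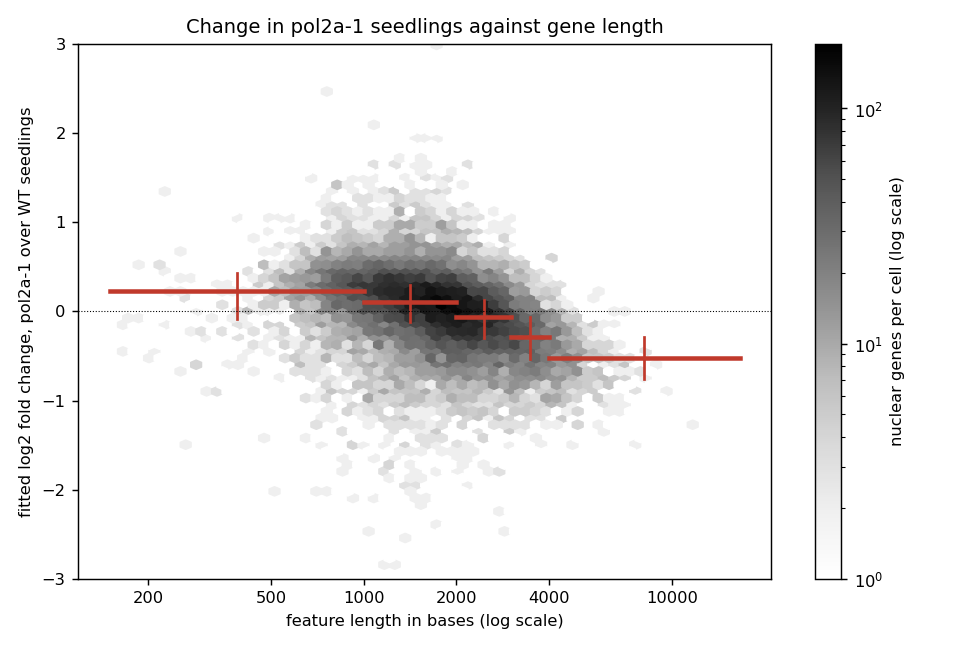
Log2 fold change of pol2a-1 over WT (vertical axis) against feature length in bases (horizontal log axis) for nuclear genes in the fit of 10 libraries, with darker cells holding more genes. Horizontal red lines are medians of the length bins and vertical red lines their quartiles; the medians run from 0.22 under 1000 bases to -0.52 from 4000 bases, and 173 genes beyond the axis limits are not drawn.

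The difference between long and short genes, taken per library against the mean of both WT libraries, was -0.52 and -0.99 in replicates 1 and 2 of pol2a-1 and 0.04 and -0.04 in WT. The 2 WT values mirror each other by construction, as their own mean is the reference. The pol2a-1 mean was -0.76 ± 0.33 (SD, n = 2), and the 4 libraries give an exact two-sided permutation p of 0.333, the smallest that 2 against 2 can reach. Both mutant libraries lay beyond both WT libraries, but the 2 replicates of pol2a-2 stood at -1.25 and -0.04, farther apart than pol2a-1 and WT. The triple mutant stood at -0.36 and -0.09, and suvh2suvh9 at 0.06 and -0.16. In meiocytes the values were -0.26 and -0.36 in pol2a-1 and 0.10 and -0.10 in WT. The difference was present in each stratum examined: -0.39, -0.73 and -0.86 over 3 equal classes from low to high expression, -0.51, -0.76 and -0.81 over 3 equal classes from low to high GC content, -0.65 in genes of 2 to 5 exons and -0.75 in genes of 6 to 15 exons. It was -0.80 in genes with no opposite-strand overlap.

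The trend shaped which genes were called. Genes called lower in the 4-library fit had a median length of 3313.5 bases and those called higher 1161 bases, against 1782 bases for the genes tested. In the same fit 40.4% of genes of at least 4000 bases were lower and 0% were higher, while 1.03% of genes under 1000 bases were lower and 4.81% were higher. With the trend removed, 5.65% of the long genes were lower and 2.64% were higher. The longest genes show it singly. BIG, a calossin-like protein of auxin transport with 15766 exon bases, had 141 and 59.2 CPM in pol2a-1 and 252 and 237 CPM in WT, a log2 fold change of -1.26 that became -0.13 with the trend removed. AT1G67120, the midasin of ribosome assembly with 16614 bases, had 46.8 and 19.2 CPM in pol2a-1 and 64.0 and 61.1 CPM in WT. In both genes replicate 2 of pol2a-1 was the lowest of the 4 compared libraries.

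**Figure D3:**
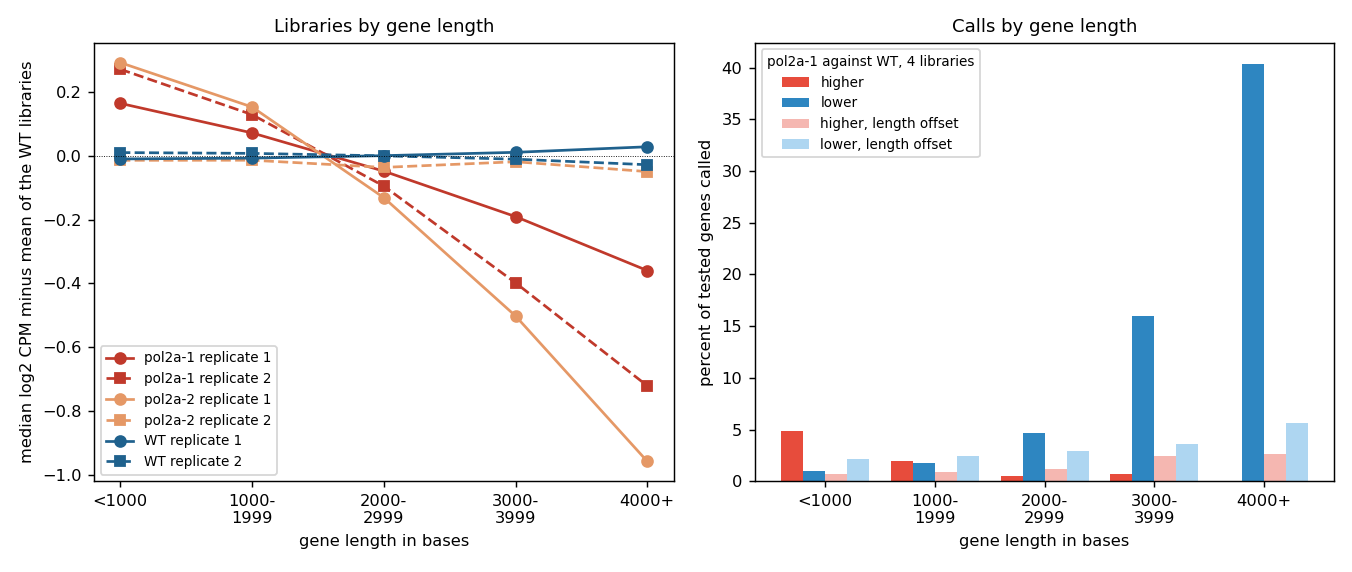
Left, the median log2 level of nuclear genes against the mean of both WT libraries (vertical axis) by length bin, 1 line per library of pol2a-1, pol2a-2 and WT. Right, the percent of genes called higher and lower in the 4-library fit by length bin, with and without the length trend removed; 40.4% of genes of at least 4000 bases were lower without and 5.65% with the removal.

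Genes of DNA replication did not move as a group. The 31 genes of replication origins and forks had a median log2 fold change of 0.05, beside 0.02 over all genes tested. The 4-library fit called 1 of them higher and 1 lower, beside 1.75% and 5.3% of all genes. TK1A, thymidine kinase, which salvages thymidine for DNA synthesis, rose to 34.5 and 24.02 CPM in pol2a-1, against 12.8 and 12.5 CPM in WT, a log2 fold change of 1.24 ± 0.17 (adjusted p = 0.00331). It stood at 156 and 89.7 CPM in pol2a-2. RFC1, the large subunit of the clamp loader, had 21.09 and 12.9 CPM in pol2a-1 and 29.7 and 27.9 CPM in WT, and lost its call with the length trend removed (adjusted p = 0.155). Of 10 tested subunits of the replicative polymerases, POL2A alone was called, beside 5.3% of all genes called lower.

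SOG1 targets were higher in places but passed once. Of 21 tested in the fit of 10 libraries, 16 had a positive log2 fold change, beside 52.5% of all genes, with a median of 0.52. The 4-library fit tested 19 and called 1 higher, beside 1.75% of all genes. It was XRI1, a gene needed for repair after X-ray damage and for meiosis. XRI1 had 13.5 and 11.6 CPM in pol2a-1 and 8.39 and 7.16 CPM in WT, a log2 fold change of 0.72 ± 0.19 (adjusted p = 0.0429). Its call was lost without either WT library or without replicate 1 of pol2a-1. SMR7, an inhibitor of cyclin-dependent kinases, had 3.51 and 0.08 CPM in pol2a-1 and 0.26 and 0.11 CPM in WT. PARP2, a poly(ADP-ribose) polymerase of strand-break repair, had 14.4 and 2.52 CPM in pol2a-1 and 4.35 and 5.48 CPM in WT. TSO2, a small subunit of ribonucleotide reductase, had 103 and 64.0 CPM in pol2a-1 and 55.2 and 59.4 CPM in WT. In all 3, replicate 1 of pol2a-1 was the high library and replicate 2 was near or below WT. The summed level of the 21 genes shows it too, with 228 and 130 CPM in pol2a-1 and 136 and 141 CPM in WT. It was 745 and 857 CPM in pol2a-2, 538 and 479 CPM in the triple mutant and 156 and 160 CPM in suvh2suvh9.

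SOG1 binds a 2-part motif, CTT and AAG with 7 bases of any kind between them, which reads the same on both strands. In the 250 bases before the annotated start, read from RefSeq's TAIR10.1 assembly, it occurred in 8 of the 21 SOG1 targets (38.1%) and in 2665 of 27444 promoters of nuclear genes (9.71%). It occurred in 14 of the 134 genes called higher in both 4-library versions (10.45%) and 27 of the 435 called lower (6.21%), and in none of the 4 genes called in the fit of 10 libraries. Shown are the promoters of SMR7, which holds a match, of XRI1, the called target, and of AT1G75945, the called gene that was near 0 in WT, each 5′ to 3′ on the strand of the gene with the match in capitals. They lie at chr3:10231568-10231817 (minus strand), chr5:19758631-19758880 (plus strand) and chr1:28515917-28516166 (minus strand).
SMR7: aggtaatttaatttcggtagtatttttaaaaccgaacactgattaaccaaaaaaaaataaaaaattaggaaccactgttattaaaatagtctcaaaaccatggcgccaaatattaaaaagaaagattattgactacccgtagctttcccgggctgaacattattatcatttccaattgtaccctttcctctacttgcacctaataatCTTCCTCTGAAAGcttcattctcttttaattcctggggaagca
XRI1: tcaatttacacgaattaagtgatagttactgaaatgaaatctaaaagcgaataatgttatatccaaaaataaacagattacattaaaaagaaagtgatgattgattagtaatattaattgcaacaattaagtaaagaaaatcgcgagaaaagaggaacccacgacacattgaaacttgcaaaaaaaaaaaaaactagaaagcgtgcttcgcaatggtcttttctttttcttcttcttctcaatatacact
AT1G75945: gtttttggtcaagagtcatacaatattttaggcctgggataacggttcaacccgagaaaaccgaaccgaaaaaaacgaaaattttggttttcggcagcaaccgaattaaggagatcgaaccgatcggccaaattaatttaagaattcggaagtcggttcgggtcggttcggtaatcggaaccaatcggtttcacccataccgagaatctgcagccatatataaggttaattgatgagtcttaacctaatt
XRI1 and AT1G75945 hold no match in this window, which says nothing of sites elsewhere.

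Sensors of damage and end-joining genes did not rise. The fold change was negative for 11 of the 12 tested, whose median length is 3967 bases, beside 52.5% positive over all genes. The 4-library fit called 1 lower, beside 5.3% of all genes. It was LIG4, the ligase of end joining, at 11.4 and 9.74 CPM in pol2a-1 and 19.2 and 17.1 CPM in WT. That call was lost with the length trend removed (adjusted p = 0.240) and without either WT library.

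Genes of cell division leaned higher with few calls, beside 52.5% of all genes positive and 1.75% called higher. Of 20 genes of G2 and mitosis, 16 had a positive fold change (median 0.25) and KNOLLE, a syntaxin of the cell plate, was called at 43.2 and 41.1 CPM in pol2a-1 and 25.3 and 30.05 CPM in WT (adjusted p = 0.0206). Annotated exons of genes on the opposite strand overlap 33.5% of its exons. Of 13 CDK inhibitors and regulators of endoreduplication, 12 were positive (median 0.40). KRP4 was called at 16.5 and 14.4 CPM in pol2a-1 and 9.404 and 8.16 CPM in WT (adjusted p = 0.0175), with 38.7% of its exons overlapped. SMR1 was called at 31.0 and 33.3 CPM in pol2a-1 and 24.1 and 20.99 CPM in WT and lost the call with the length trend removed (adjusted p = 0.221). Of 20 histone and chromatin assembly genes 19 were positive (median 0.29), and these are short, with a median of 915 bases, a length at which the median of all genes was also positive. HTR3, a histone H3, and HTA11, a histone H2A variant, were called higher and lost their calls with the trend removed (adjusted p = 0.205 and 0.144). Without replicate 1 of WT none of the 5 genes named in this paragraph passed, and without replicate 2 of WT KNOLLE did.

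Genes on the list of silencing machinery, to which SUVH2 and SUVH9 belong by function, leaned lower. The list holds enzymes that remove DNA methylation as well as enzymes that add it. Of 42 tested in the fit of 10 libraries, 33 had a negative fold change (median -0.31), beside 52.5% positive over all genes. The 4-library fit called 6 of 41 lower, beside 5.3% of all genes. The median length of the list is 3099 bases, and with the trend removed its median was -0.08 and 2 of the 6 kept their call. Those 2 are DNA glycosylases that remove methylated cytosine. DME had 28.6 and 10.7 CPM in pol2a-1 and 63.4 and 56.4 CPM in WT, a log2 fold change of -1.57 ± 0.29 (adjusted p = 0.00997). DML2 had 8.16 and 2.44 CPM in pol2a-1 and 18.95 and 15.7 CPM in WT, a log2 fold change of -1.65 ± 0.34 (adjusted p = 0.0157). Replicate 2 of pol2a-1 was the lowest of the 4 libraries in both genes, and DESeq2 on the 4 libraries called neither. The calls lost with the trend removed were MET1 and CMT2, which methylate DNA, NRPE1, the largest subunit of RNA polymerase V, and MOM1, a silencing factor. Of 3 genes known to be silenced by DNA methylation 2 were tested, with FWA too low to test. Neither of the 2 was called, beside 1.75% of all genes called higher and 5.3% lower. Both had a positive fold change (median 0.90 in the fit of 10 libraries), and 2 genes are too few to read as a list. Of 6 Polycomb subunits 1 was called lower, beside 5.3% of all genes. It was SWN, a histone H3 lysine methyltransferase, at 20.95 and 15.5 CPM in pol2a-1 and 40.3 and 35.9 CPM in WT. Its log2 fold change was -1.03 ± 0.16 (adjusted p = 0.00475), and it kept the call with the trend removed.

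Among the lists examined, the cold response held the highest share of called genes. The 13 members, CBF transcription factors and the protective proteins and zinc fingers that act with them, each had a negative fold change, with a median of -1.08. All 13 lay below WT in both pol2a-1 libraries, as did 27.6% of all genes tested, while 25.5% lay above. The 4-library fit called 9 of the 13 lower, beside 5.3% of all genes, and 8 of these with the length trend removed, COR47 being the exception (adjusted p = 0.0548). CBF2, a regulator that switches on cold genes, had 2.98 and 1.60 CPM in pol2a-1 and 6.50 and 6.86 CPM in WT, a log2 fold change of -1.49 ± 0.32 (adjusted p = 0.0172). CBF3, its close homologue, had 1.39 and 1.85 CPM in pol2a-1 and 4.38 and 5.26 CPM in WT (adjusted p = 0.0217). Both regulators were low in all 4 libraries. Among genes they switch on, RD29A had 17.04 and 10.08 CPM in pol2a-1 and 30.9 and 27.7 CPM in WT (adjusted p = 0.0101). COR15A, which protects chloroplast membranes in the cold, had 15.9 and 15.3 CPM in pol2a-1 and 28.6 and 26.02 CPM in WT (adjusted p = 0.0109). The zinc finger gene ZAT10 had 16.1 and 10.8 CPM in pol2a-1 and 31.3 and 26.8 CPM in WT (adjusted p = 0.00691), and its relative ZAT12 had 2.19 and 2.60 CPM in pol2a-1 and 7.37 and 6.60 CPM in WT (adjusted p = 0.0106). COR15B, COR47 and KIN2 were also called lower, and 29.5% of the exons of COR15B are overlapped on the opposite strand.

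The cold genes varied between libraries of the same genotype elsewhere in the series. ZAT12 had 6.39 and 60.1 CPM in suvh2suvh9, and CBF2 had 7.34 and 75.7 CPM. The summed level of the 13 genes was 208 and 168 CPM in pol2a-1 and 316 and 308 CPM in WT, and 245 and 684 CPM in suvh2suvh9, whose 2 libraries lay farther apart than pol2a-1 and WT. None of the 13 passed in the fit of 10 libraries. Without replicate 1 of WT the 4-library fit called 2 of the 9, RD29A and ZAT10, and without replicate 2 of WT it called 5.

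**Figure D4:**
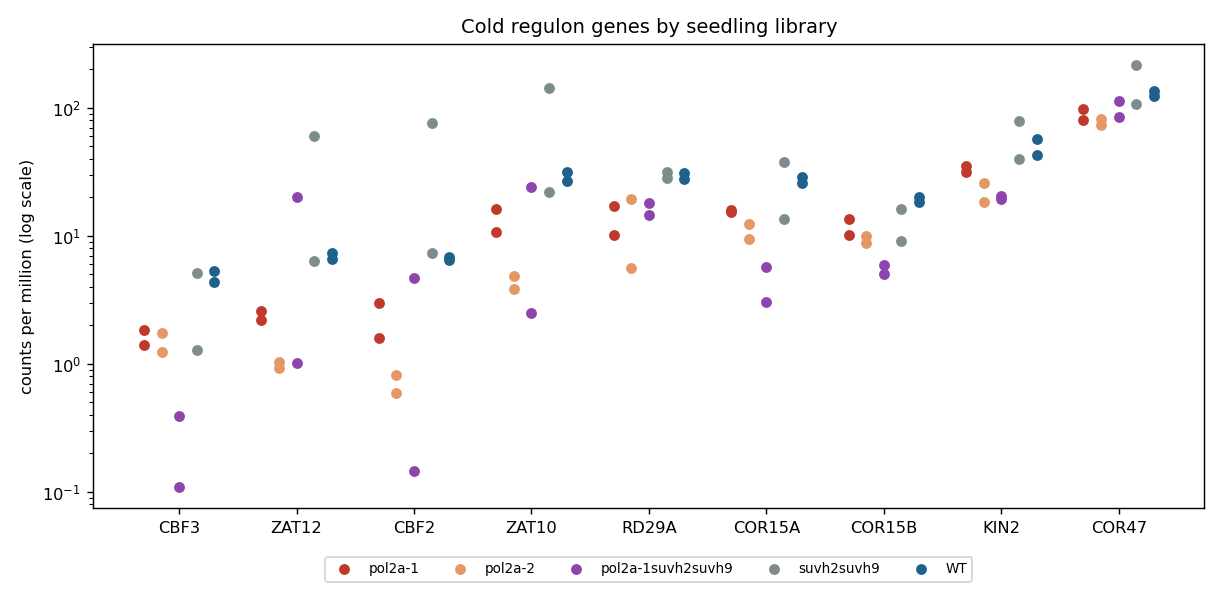
Levels of the 9 cold response genes called lower in the 4-library fit, in CPM on a vertical log axis, in all 10 seedling libraries grouped by genotype. Both pol2a-1 libraries lie below both WT libraries in each gene, and the 2 suvh2suvh9 libraries differ widely in CBF2 and ZAT12.

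Genes of other responses to the surroundings also leaned lower. Of 19 salicylic acid defence genes tested, 18 had a negative fold change, with a median of -0.72, beside 52.5% positive and 0.02 over all genes. The 4-library fit called 3 of 18 lower, beside 5.3% of all genes. Its median for the list, -0.64, was -0.16 without replicate 1 of WT, and the summed levels overlapped, at 227 and 176 CPM in pol2a-1 and 387 and 207 CPM in WT. Beside PR1, PR5, a thaumatin-like antimicrobial protein, had 11.1 and 11.5 CPM in pol2a-1 and 25.3 and 21.96 CPM in WT (adjusted p = 0.00469). CBP60G, a regulator of salicylic acid synthesis, had 7.56 and 9.99 CPM in pol2a-1 and 21.07 and 14.8 CPM in WT (adjusted p = 0.0184). The 3 kept their calls with the length trend removed, and CBP60G alone lost its call when a library was left out, replicate 1 of WT.

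Of 14 jasmonate genes, 5 were called lower, beside 5.3% of all genes, and 1 higher, beside 1.75%. The median was -0.62, but -0.08 without replicate 1 of WT, and the summed levels overlapped, at 750 and 493 CPM in pol2a-1 and 1100 and 641 CPM in WT. JAZ1, a repressor of jasmonate responses that is itself induced by jasmonate, had 7.10 and 5.54 CPM in pol2a-1 and 18.8 and 17.9 CPM in WT, a log2 fold change of -1.50 ± 0.18 (adjusted p = 0.00210). OPR3, an enzyme of jasmonate synthesis, had 24.1 and 18.5 CPM in pol2a-1 and 41.4 and 31.9 CPM in WT (adjusted p = 0.0206). MYC2, the main transcription factor of the pathway, had 62.2 and 42.6 CPM in pol2a-1 and 102 and 96.97 CPM in WT (adjusted p = 0.00748), but 98.5% of its exons are overlapped on the opposite strand. JAZ1, OPR3, JAZ5 and MYC2 kept their calls with the trend removed, and LOX2 did not. VSP1, a vegetative storage protein, was the gene called higher, at 89.9 and 43.8 CPM in pol2a-1 and 38.8 and 16.3 CPM in WT, and lost its call with the trend removed (adjusted p = 0.0646). The list therefore did not move in 1 direction. Of 7 heat shock genes in the 4-library fit 1 was called lower, beside 5.3% of all genes. It was HSP101, a chaperone that dissolves aggregates, at 7.03 and 5.21 CPM in pol2a-1 and 15.9 and 12.6 CPM in WT (adjusted p = 0.00911). Without replicate 1 of WT the calls of HSP101, OPR3, JAZ5 and LOX2 were lost, LOX2 was also lost without replicate 2 of pol2a-1, and VSP1 was lost without replicate 2 of WT or replicate 1 of pol2a-1.

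Of 17 clock genes in the fit of 10 libraries, 14 had a negative fold change (median -0.40), beside 52.5% positive over all genes. The 4-library fit called 4 of 16 lower, beside 5.3% of all genes. GI, a clock protein that also promotes flowering, had 22.9 and 14.7 CPM in pol2a-1 and 45.3 and 44.0 CPM in WT, a log2 fold change of -1.22 ± 0.18 (adjusted p = 0.00407). PRR9, a repressor expressed in the morning, had 48.3 and 42.7 CPM in pol2a-1 and 75.2 and 72.7 CPM in WT (adjusted p = 0.0107). These 2 kept their calls with the trend removed, while PRR7 and LNK2 did not (adjusted p = 0.0760 and 0.202). PRR9 was not called without replicate 1 of WT.

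Genes of senescence and sugar starvation moved both ways. SEN1, a gene induced by darkness, rose to 46.9 and 30.9 CPM in pol2a-1, against 18.8 and 21.5 CPM in WT (adjusted p = 0.00984), and DIN10, also induced by darkness, rose to 146 and 114 CPM, against 83.6 and 86.8 CPM in WT (adjusted p = 0.0161). WRKY53, a transcription factor that promotes senescence, fell to 17.64 and 17.64 CPM, against 35.6 and 35.1 CPM in WT (adjusted p = 0.00397). Of the 12 tested, 6 had a positive fold change, beside 52.5% of all genes. Photosynthesis genes had a median of 0.15. Of 28 in the 4-library fit, 0 were called higher and 1 lower, beside 1.75% and 5.3% of all genes. The number called higher was not stable: 6 with no filter or with DESeq2, 8 with a replicate block, 9 without replicate 1 of pol2a-1 and 3 without replicate 2 of pol2a-1. The gene called lower was RCA, which activates Rubisco and fell to 6746 and 5844 CPM in pol2a-1, against 9657 and 8996 CPM in WT (adjusted p = 0.0135). SEN1, DIN10 and RCA were not called without replicate 1 of WT, nor DIN10 without replicate 2 of WT.

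Of 15 floral organ and meristem genes in the fit of 10 libraries, 14 had a positive fold change, beside 52.5% of all genes. Their median was 0.67. The 4-library fit called 1 of 13 higher, beside 1.75% of all genes. It was SEP1, a MADS factor of floral organs, at 5.70 and 5.29 CPM in pol2a-1 and 2.61 and 1.83 CPM in WT (adjusted p = 0.0279). On the opposite strand, 35.8% of its exons are overlapped. The summed level of the list was 49.8 and 59.2 CPM in pol2a-1 and 33.4 and 37.4 CPM in WT. Anther and pollen markers were 4.04 and 34.8 CPM in pol2a-1, as given above, and the part of floral tissue in these calls was not tested. Of 13 flowering time genes in the 4-library fit, 1 was called lower, beside 5.3% of all genes. It was MAF5, a repressor of flowering, at 5.90 and 3.19 CPM in pol2a-1 and 11.4 and 10.14 CPM in WT (adjusted p = 0.0196). Of 7 meiosis markers in the fit of 10 libraries 2 had a positive fold change and 5 a negative one (median -0.27). The 4-library fit called 1 of 5 higher, beside 1.75% of all genes. DMC1, the meiotic recombinase, was called higher, at 13.99 and 14.8 CPM in pol2a-1 and 7.66 and 8.09 CPM in WT (adjusted p = 0.0147), and stood at 37.0 and 31.7 CPM in pol2a-2. Without replicate 1 of WT the calls of SEP1, MAF5 and DMC1 were lost.

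**Figure D5:**
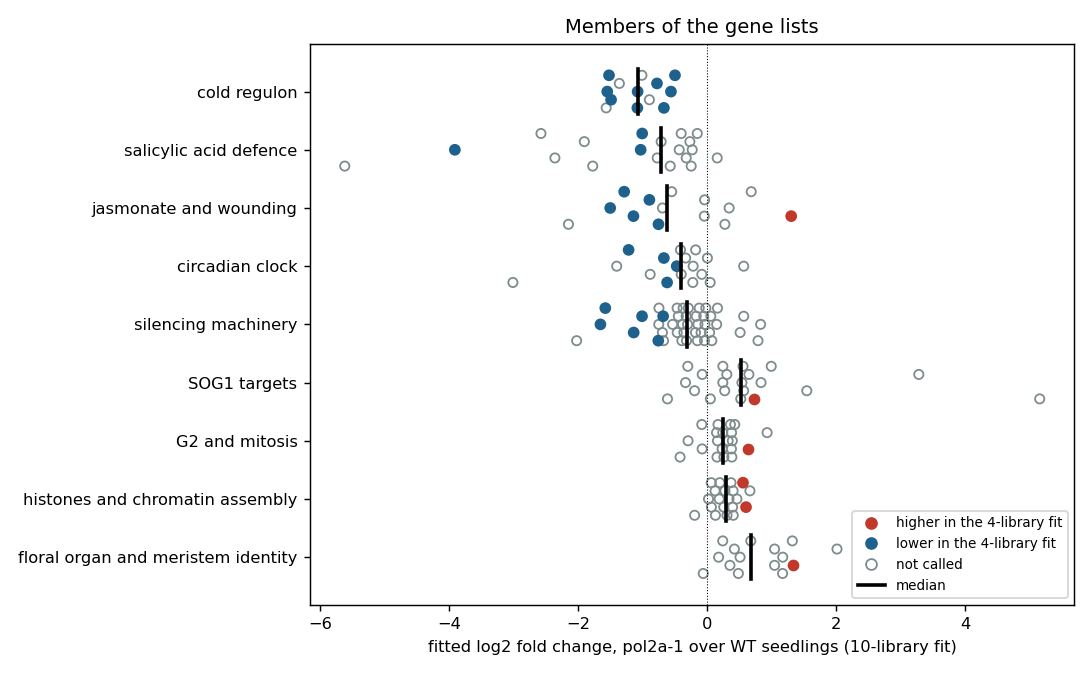
Log2 fold change of pol2a-1 over WT in the fit of 10 libraries (horizontal axis) for the members of 9 gene lists. Each dot is a gene, filled red or blue where the 4-library fit called it higher or lower, and the bar is the list's median, from -1.08 for the cold regulon to 0.67 for floral organ and meristem genes.

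Transposable elements took a little less of the RNA in pol2a-1. They summed to 8932 and 8341 CPM in pol2a-1 and 9443 and 9432 CPM in WT, and 3201 and 2936 elements had a count in pol2a-1, against 4268 and 3531 in the more deeply sequenced WT. In the 4-library fit 9 of 1282 tested TEs were higher (0.702%) and 48 were lower (3.74%). With the length trend of nuclear genes removed, 9 were higher (0.702%) and 81 lower (6.32%). That trend was fitted on nuclear genes alone, and applying it moved the median of TEs under 500 bases from -0.07 to -0.41. So the 81 are not calls left after a trend of the TEs themselves was removed. AT2TE26610 fell to 3.85 and 2.44 CPM in pol2a-1, against 22.2 and 12.3 CPM in WT, a log2 fold change of -2.41. This TE was below WT in every mutant, with 0.96 and 1.65 CPM in pol2a-2, 0.22 and 0.30 CPM in the triple mutant and 0.73 and 0.22 CPM in suvh2suvh9. AT1TE29140 fell to 12.2 and 12.3 CPM, against 29.5 and 32.6 CPM in WT. AT1TE54100, called higher, had 2.79 and 0.84 CPM in pol2a-1 and 0.23 and 0.11 CPM in WT. The lean toward lower TE calls is that of the 4-library fit; in the fit of 10 libraries the unadjusted counts given above were close to even. The trend with length was weak in the fit of 10 libraries, with medians of -0.06 over 1144 TEs under 500 bases, -0.07 over 398 from 500 to below 2000 bases and 0.00 over 206 of at least 2000 bases. In the 4-library fit the medians were -0.07, -0.12 and -0.33 over 894, 294 and 94 TEs in the same order.

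The same genotypes were compared in meiocytes, where pol2a-1 against WT gave 22 higher (0.115%) and 30 lower (0.156%) of 19190 nuclear genes in a fit of the 10 meiocyte libraries. The genes also called in the same direction in the 4-library seedling fit were AT3G02640 and LTP6, a lipid transfer protein, on the higher side and POL2A, AT1G35710, AT1G63860 and AT2G14255 on the lower side. With the length trend removed, LTP6 and AT2G14255 alone of these 6 kept the seedling call (adjusted p from 0.0630 to 0.370 in the others). A further gene was called lower in seedlings and higher in meiocytes, 1 of the 1012 and of the 22. In meiocytes POL2A had 89.8 and 89.5 CPM in pol2a-1 and 236 and 165 CPM in WT, a log2 fold change of -1.14 ± 0.20 (adjusted p = 0.0176). The test of the difference between the seedling and the meiocyte effect, in a fit of all 20 libraries, called 20 genes with a higher effect in seedlings (0.0922%) and 70 with a lower one (0.323%) of 21701. AT5G22920 was among the first, with a log2 fold change of 1.41 in seedlings and -1.25 in meiocytes. Its meiocyte effect alone did not pass in the fit of the 10 meiocyte libraries (adjusted p = 0.361, edgeR quasi-likelihood test).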

How the data were processed

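Polyadenylated RNA of whole seedlings was sequenced as unstranded libraries, per the labels' protocols. The authors deposited raw counts of reads per gene or transposable element, with the feature's exon length; the submitters' processing notes name featureCounts 2.0.0, STAR 2.7.9a, cutadapt 3.4, DESeq2 1.30.1 and the build TAIR10. How reads with several hits or in overlapping genes were counted is not stated in those notes.

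Samples were grouped by title. The counts of the 10 seedling libraries (11.9 to 34.5 in units of 1e6) entered 1 edgeR 4.0.16 fit (limma 3.58.1, R 4.3.3), with a coefficient per genotype, filterByExpr (minimum count 10) and TMM scaling. The quasi-likelihood F test was two-sided, p-values were adjusted by Benjamini-Hochberg over genes and transposable elements together, and features at an adjusted p under 0.05 were called. A fit of the 4 compared libraries, with or without an offset for each library's loess trend (span 0.5) with length, was taken up after seeing the first. The trend was fitted on nuclear genes outside repeated sequence and applied to all features. The steps were tested on simulated data. Folds against 0 counts are bounds at a floor of 3 counts over the group, and ratios with 1 to 3 counts carry exact 95% intervals.

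Annotation and promoters came from RefSeq TAIR10.1 by locus name. Genes with at least 10% of their 100-base exon windows repeated in the genome were counted apart. The naming rule took called nuclear genes outside repeated sequence averaging at least 1 CPM and with groups that do not overlap, at most 12 per direction by fold change, with called list members (at most 6 per list) and TEs. Where fewer than 6 passed, those of smallest p were added as not passing. The rule was written for the fit of 10 libraries and was applied also to that of 4. There the 12 per direction also had to pass with the length trend removed. They also had to have more than 3 counts in each group and under 20% of their exons overlapped on the opposite strand. Members, lists and tests were chosen with earlier results of these data known. Alternatives were other size factors, no filter, DESeq2 1.42.0, other sets of libraries, a replicate block and each library left out. Same-numbered replicates did not pair: their deviations correlated at 0.109 between pol2a-1 and WT, and from -0.172 to 0.154 between other groups.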

Additional observations from a re-analysis of the deposited data

Results flagged for a closer look

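AT5G22920, the zinc finger gene called higher in pol2a-1 seedlings, stood out because its effect differed between tissues. In the fit of all 20 libraries its log2 fold change of pol2a-1 over WT was 1.41 in seedlings and -1.25 in meiocytes, a difference of 2.65 (adjusted p = 0.0225, edgeR interaction test, 2 libraries per group). It was higher in 2 of 2 pol2a-1 seedling libraries. In meiocytes the gene had 3.94 and 4.68 CPM in pol2a-1 and 15.8 and 5.44 CPM in WT, where replicate 1 was the high library. The meiocyte effect alone did not pass in the fit of 10 meiocyte libraries (adjusted p = 0.361, edgeR quasi-likelihood test).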

How the results depend on the processing

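Main counts here include repeated-sequence and organellar genes: 3 genes higher and 1 lower in the fit of 10 libraries. They were 317 and 1286 without a filter on low counts, 57 and 67 with DESeq2, 341 and 1040 with the 4 libraries alone, 309 and 701 without pol2a-2 (chosen after seeing the data), 1 and 3 with pol2a-2 joined to pol2a-1, and 0 and 0 with all 20 libraries, with the replicate block and without suvh2suvh9 and the triple mutant (chosen after seeing the data). Each library left out gave 0 to 1 in both directions. TEs higher, 2 in the main fit, were 30 without a filter, 9 with 4 libraries, 14 without pol2a-2, 0 with all 20 libraries and 1 with size factors, with the replicate block, without organellar and repeated genes, and without suvh2suvh9 and the triple mutant; leaving a library out gave 0 to 1. TEs lower, 0 in the main fit, were 99 without a filter, 5 with DESeq2, 48 with 4 libraries and 41 without pol2a-2. In the 4-library fit, 341 genes higher became 220 with the length offset, 731 without a filter, 799 with the replicate block and 55 to 883 with a library left out, and 1040 lower became 543, 1754, 1673 and 283 to 2102. The long minus short difference of -0.75 became -0.0032 with the offset, by its construction, and -0.98 to -0.51 with a library left out. POL2A, at -0.58, passed at -0.60 without a filter and at -0.58 with 4 libraries or without pol2a-2, and was 0.33 with the offset. The 110 genes with a tissue difference were 73 with the replicate block and 32 to 307 with a library left out. Of single named features under alternatives, 408 kept their side of the threshold, 105 passed newly, 42 no longer passed and 0 turned round. The cause of these shifts was not tested. With 2 libraries per group at total counts from 11.9 to 34.5, in units of 1e6, features under the filter on low counts were not tested.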
